A study of Mus musculus with 2 samples.

Results

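Collagen chains were followed on 2 arrays of newborn mouse incisor, 1 hybridised with RNA of wild-type (WT) mice and 1 with RNA of Sox21 knockout (KO) mice. Sox21 is a transcription factor of the Sox family that is made in ameloblasts, the epithelial cells that lay down enamel, and the comparison asked what its loss does to gene expression in the developing tooth. The labels give P0 and incisor for both samples, the series' description speaks both of ameloblasts and of whole tooth germs, and the study's methods name tooth germs of a later day, P1. The study's methods give C57BL/6J as its WT mice and credit the Sox21 knockout mice to the same published source as mice with a GFP reporter knocked in at the Sox21 locus, without saying which allele the arrays' mice carried. How many animals gave RNA to each array, and whether it was pooled, is not given in the sources used here. Each genotype had 1 array, so there was no spread between samples and no test could be made, and every value below describes these 2 RNA samples and not the genotypes.

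The chains are the genes whose name on the array has the form of a collagen alpha chain gene, Col followed by the collagen type and the chain, with the exception of Col17a1. This gave 41 genes of the 21231 genes on the array that had a reference symbol. They lay on 62 probes, with 27 chains on 1 probe each and 14 chains on more, and each chain took the value of the probe with the highest mean signal over both arrays. The chains were grouped as 8 fibrillar, 9 basement membrane, 7 cartilage and 6 FACIT chains, FACIT being the fibril-associated collagens with interrupted triple helices, and 11 other chains.

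Collagens are the main structural proteins of the extracellular matrix, built from alpha chains that wind around each other in a triple helix in which glycine recurs at a fixed step. Fibrillar collagens form the banded fibres of dentin, bone and skin, and in the tooth they are made chiefly by odontoblasts and other cells of the mesenchyme. Type IV collagen forms the sheet-like network of basement membranes, which lies between the dental epithelium and the mesenchyme and around blood vessels. FACIT chains sit on the surface of fibrils, and type II, IX, X and XI chains are best known from cartilage. Many collagens need chains of different genes in 1 trimer, so the values of partner chains are set side by side below.

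The repeating glycine can be read in the probes themselves. In 3 of the 62 collagen probes of 60 bases, glycine codons (GGN) recurred every 9 bases at 5 or more positions, which places these probes in the coding sequence of the triple helix. The same repeat was found in 29 of the 55679 probes on the array, or 0.0521%. They are shown because all 3 belong to chains whose probes gave unlike values, described further on, with the glycine codons in capitals. The positions on the mouse genome build mm9 are those of the array's annotation, all on the plus strand: chr4:47283786-47283845 for Col15a1, chr4:129756457-129756516 for Col16a1 and chr3:130270497-130270556 for Col25a1.
Col15a1: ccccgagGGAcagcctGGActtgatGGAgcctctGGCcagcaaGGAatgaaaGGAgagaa
Col16a1: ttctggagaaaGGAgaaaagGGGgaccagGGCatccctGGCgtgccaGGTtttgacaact
Col25a1: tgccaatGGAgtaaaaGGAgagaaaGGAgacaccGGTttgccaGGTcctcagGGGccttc

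Signals are the scanner's processed signals, in arbitrary units of brightness after background subtraction. A log2 ratio is the KO value minus the WT value after each signal was divided by the 75th percentile of its array, which was 267.7 for WT and 275.6 for KO. Well above background were 49.7% of the spots on the WT array and 50.4% on the KO array, and no spot other than controls was saturated. The ± after a ratio is the error that the scanner software gives for the 2 spots, about 0.20 for bright probes, and it covers the array and not the animals. The targeted gene Sox21 had a signal of 1362 in WT and 659 in KO, a log2 ratio of -1.09 ± 0.20. The signal in KO was still well above background, and whether the probe lies inside the deleted sequence was not determined. All 7 tooth germ genes examined were well above background on both arrays. Among them were the enamel matrix genes Amelx, Ambn and Enam and the dentin gene Dspp, so both samples held tooth tissue. They do not tell which of the tissues named at the start the samples hold.

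A chain counted as measured where the scanner software set its probe well above background in WT and in KO alike, as it did for 35 of the 41 chains. The other 6, Col19a1, Col28a1, Col4a3, Col6a4, Col6a5 and Col6a6, were well above background on neither array, and no chain was above it on 1 array alone. Most measured chains were somewhat higher on the KO array. Their median log2 ratio was 0.25, against 0.01 for the 13785 genes measured on both arrays. The ratio was above 0 for 25 of the 35 chains, or 71.4%, where 52.4% of all measured genes were above 0. At least 1.5-fold higher in KO were 5 chains, or 14.3% of the measured chains, beside 3.2% of all measured genes. At least 1.5-fold lower were 2 chains, or 5.71%, beside 2.98% of all measured genes. The 5 higher chains were Col4a6, Col4a5, Col2a1, Col8a1 and Col13a1, and the 2 lower chains were Col15a1 and Col20a1. With normexp, another background correction, 3 chains stayed higher and none lower, since Col8a1 came to 0.39, Col13a1 to 0.27, and Col15a1 and Col20a1 to -0.38 each. The remaining 28 chains were within 1.5-fold of WT. In RNA of a tissue with several cell types, fewer cells of a type and less RNA per cell cannot be told apart.

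**Figure D1:**
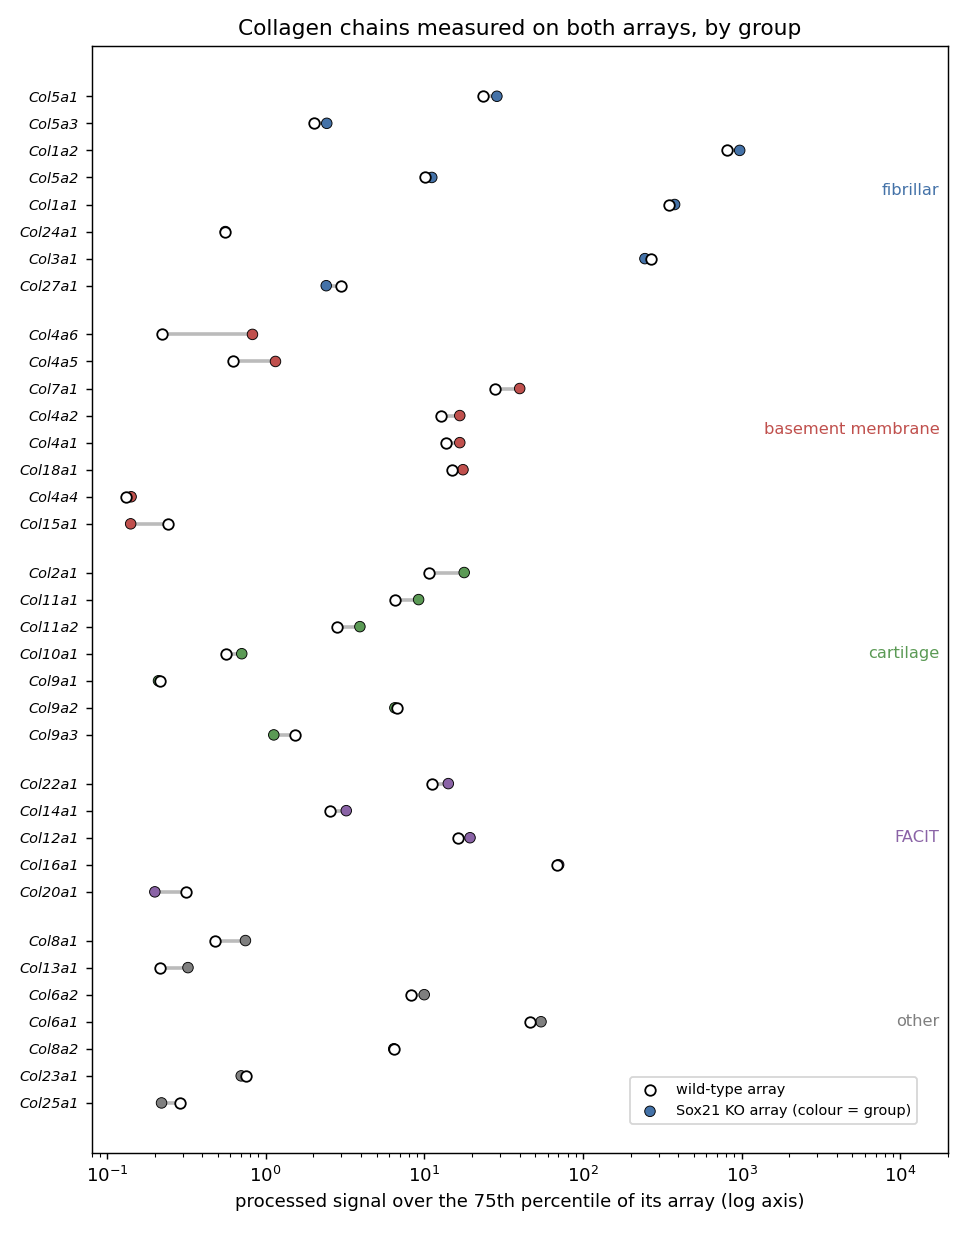
The plot of signals shows each of the 35 measured chains on the WT array (open circle) and the KO array (filled circle, coloured by group), as the processed signal in units of its array's 75th percentile on a log axis, 1 array per genotype. Levels of different probes are not comparable with each other; a reader should look at the gap within each line, which is widest for Col4a6 and hardly visible for Col24a1, Col9a1, Col9a2, Col8a2 and Col16a1.

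The chains were also split by signal level. Of the 18 chains at or above the median brightness of the measured chains, 15 were above 0, their median log2 ratio was 0.25, and 1 of them, Col2a1, was 1.5-fold higher. The 3766 genes of that brightness had a median of 0.00, 49.7% of them were above 0, 1.12% were at least 1.5-fold higher and 2.12% lower. The 17 dimmer chains had a median of 0.10. Of these, 10 were above 0 (58.8%), 4 were at least 1.5-fold higher (23.5%) and 2 at least 1.5-fold lower (11.8%). The 10019 genes below that brightness had a median of 0.02, with 53.5% above 0, 3.98% at least 1.5-fold higher and 3.3% lower, so the share of dim chains above 0 was near that of all dim genes. Among the dimmer chains, the 9 dimmest had a median of 0.00 and the next 8 a median of 0.30. Thus 6 of the 7 chains that differed by 1.5-fold or more were read from dim probes, where the scanner's error is larger.

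The chains grouped as fibrillar, which build the fibres of dentin, bone and soft connective tissue, had the lowest median of the chain groups. This group leaves out Col2a1, Col11a1 and Col11a2, listed with the cartilage chains at log2 ratios of 0.74, 0.50 and 0.48. Type II collagen is also fibrillar, and Col2a1 passed 1.5-fold, so the values here describe this grouping. All 8 chains of the fibrillar group were measured, and their median log2 ratio was 0.12. Above 0 were 6 (beside 52.4% of all measured genes), and none reached 1.5-fold in either direction. Col1a1 and Col1a2 encode the partner chains of type I collagen, the bulk protein of dentin. The signal of Col1a1 was 93690 in WT and 104303 in KO, a log2 ratio of 0.11 ± 0.20. The signal of Col1a2 was 218173 in WT and 268230 in KO, a log2 ratio of 0.26 ± 0.20. The 2 partners differed from each other by 0.14 on the log2 scale, less than the scanner's error. Col3a1, the chain of type III collagen in soft tissue and vessel walls, went from 71664 in WT to 67796 in KO, a log2 ratio of -0.12 ± 0.20.

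Type V chains enter the core of type I fibrils and set their diameter. Col5a1 read 6269 in WT and 7907 in KO, the highest ratio of the fibrillar group at 0.29 ± 0.20. Col5a2 read 2717 and 3073, a log2 ratio of 0.14 ± 0.20. Col5a3 read 537 and 669, a log2 ratio of 0.28 ± 0.21. The ratios of the 3 type V chains were thus above 0 but within 1.5-fold, and within 0.16 of each other on the log2 scale. Among the minor fibrillar chains, Col24a1 was at 149 and 154, a ratio of 0.00. Col27a1 read 804 in WT and 664 in KO, the lowest ratio of the group at -0.32 ± 0.20.

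The basement membrane chains had a median log2 ratio of 0.35 over the 8 measured chains of 9 listed. With the probe brightest on the WT array, which gives another probe for Col4a6, it was 0.27. Of these 8, 7 were above 0 (87.5%, beside 52.4% of all measured genes), 2 were at least 1.5-fold higher (beside 3.2%), 1 of them by the choice of probe, and 1 was at least 1.5-fold lower (beside 2.98%). Col4a1 and Col4a2 make the common trimer of type IV collagen, found in nearly all basement membranes. Col4a1 was printed on 10 spots of each array. Its spots ranged from 3398 to 3942 around a median of 3649 in WT, and from 4357 to 4811 around a median of 4638 in KO. After scaling, the 10 spots gave a log2 ratio of 0.30 ± 0.07 (SD over spots of the same 2 arrays, a technical spread), from 0.22 to 0.46. Col4a2 read 3396 in WT and 4614 in KO, a log2 ratio of 0.40 ± 0.20, and so stood within 0.10 of its partner.

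The genes of partner type IV chains lie head to head, so that each pair shares a stretch of upstream sequence. In the RefSeq promoter table (build GRCm38.p6) the annotated starts of Col4a1 and Col4a2 lay 21 bases apart, and those of Col4a5 and Col4a6, on the X chromosome, 1343 bases apart. Col4a5 and Col4a6 make the type IV trimer of a narrower set of basement membranes, among them those under skin epithelium and around smooth muscle. They are shown with the 250 bases before each start because by the brightest probe these 2 chains had the highest ratios of all. For Col4a6 this rested on the choice of probe, as described below. The letters GGGCGG (a GC box), CCAAT and TATAAA are in capitals on either strand. The first run is chrX:141475169-141475418 on the plus strand and the second chrX:141474077-141474326 on the minus strand, each written 5′ to 3′ along its own gene.
Col4a5: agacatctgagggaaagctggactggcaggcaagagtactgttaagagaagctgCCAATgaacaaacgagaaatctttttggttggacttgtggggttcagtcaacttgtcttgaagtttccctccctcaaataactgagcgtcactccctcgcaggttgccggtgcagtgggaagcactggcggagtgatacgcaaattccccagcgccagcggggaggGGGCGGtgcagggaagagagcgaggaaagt
Col4a6: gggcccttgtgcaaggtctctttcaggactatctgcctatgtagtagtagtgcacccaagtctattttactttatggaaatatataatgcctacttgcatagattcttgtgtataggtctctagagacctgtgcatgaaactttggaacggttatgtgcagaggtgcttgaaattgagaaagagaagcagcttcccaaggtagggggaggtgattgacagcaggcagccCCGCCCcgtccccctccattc

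Both stretches held 1 GC box, Col4a5 also held 1 CCAAT, and neither held TATAAA. Among the 36 promoters listed for 33 of the 41 collagen genes, 22 held GGGCGG on either strand (61.1%), 12 held CCAAT (33.3%) and 4 held TATAAA (11.1%). Over all 32851 promoters of the table, the shares were 32.7%, 33.8% and 12.4%. These are matches of letters only.

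The X-linked pair had the 2 highest log2 ratios of the 35 chains. Col4a5 (probe at chrX:138123547-138123606, mm9, plus strand) read 168 in WT and 318 in KO, a log2 ratio of 0.88 ± 0.21 or 1.84-fold. Col4a6 (probe at chrX:137599990-137600049, mm9, minus strand) read 59.3 in WT and 228 in KO, a log2 ratio of 1.90 ± 0.25 or 3.73-fold. The value of Col4a6 was not shared by its second probe, whose start lies 1443 bases away on the same strand. That probe read 78.1 in WT and 90.5 in KO, a log2 ratio of 0.17 ± 0.23. The second probe was the brighter one on the WT array and the first on the KO array, so the choice of the brightest probe alone decided whether Col4a6 was called. In an alternative chosen after seeing the data, the probe brightest on the WT array was used, and 4 chains in place of 5 were then at least 1.5-fold higher. Without Col4a5 and Col4a6 the median of the measured chains was 0.24.

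The rest of the X chromosome was set beside this pair. Its 479 other measured genes had a median log2 ratio of 0.02, and their ratios ran from -1.69 to 0.99. Of them, 12 (2.51%, beside 3.2% of all measured genes) were at least 1.5-fold higher and 17 (3.55%, beside 2.98%) lower. The 2 samples did differ in sex-linked transcripts, genes looked at after their values were seen. Xist, the transcript of the inactive X chromosome, read 80.6 in WT and 110 in KO, a log2 ratio of 0.40. The Y-linked Ddx3y read 328 and 194, a ratio of -0.80, and Eif2s3y read 664 and 287, a ratio of -1.25. Both kinds of transcript were above background on both arrays, and the part of a different mix of sexes in the ratios of Col4a5 and Col4a6 was not tested.

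The remaining basement membrane chains went both ways. Col7a1, the chain of the anchoring fibrils that tie epithelium to the tissue below, read 7507 in WT and 11011 in KO, a log2 ratio of 0.51 ± 0.20. Col18a1, the source of endostatin, read 3980 and 4834, a ratio of 0.24 ± 0.20, and its second probe gave 0.28. Col4a4, which with Col4a3 and Col4a5 makes the trimer of the kidney glomerulus, was just above background at 35.5 and 39.1, a ratio of 0.10 ± 0.32, and Col4a3 was at 4.37 and 4.04, not well above background. Col15a1, a chain of vessel and muscle basement membranes, was the lowest of the group. Its triple-helix probe read 64.8 in WT and 38.9 in KO, a log2 ratio of -0.78 ± 0.29, or 1.72-fold lower in KO. Its other 2 probes did not show this. One read 18.2 in WT, not well above background, and 30.0 in KO, and the other was well above background on neither array at 15.2 and 15.9.

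**Figure D2:**
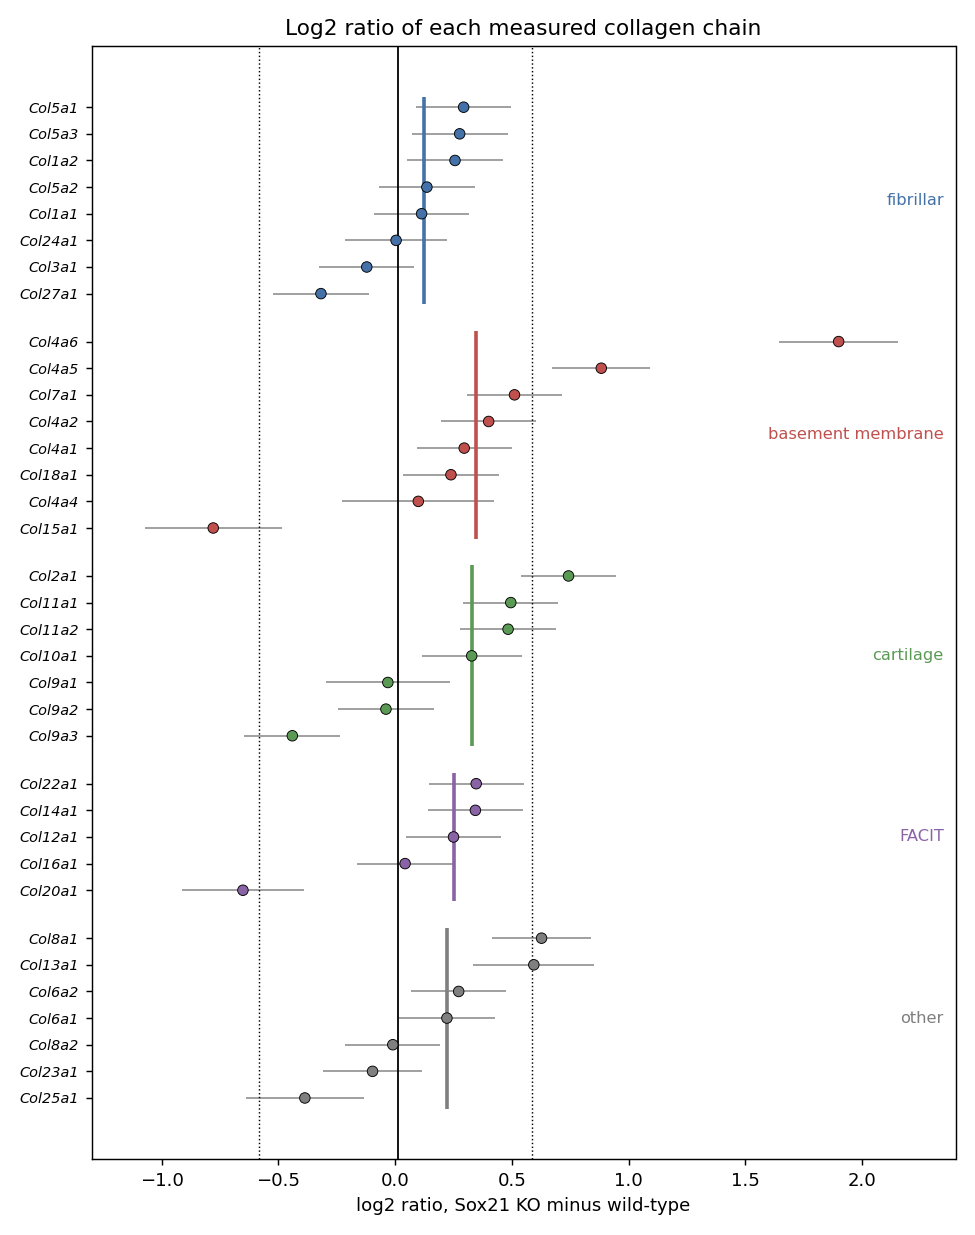
The plot of ratios gives the log2 ratio (KO minus WT) of each measured chain by group; the horizontal bars are the scanner's error of the 2 spots, the coloured lines the group medians, the black line the median of all measured genes (0.01) and the dotted lines 1.5-fold in either direction. The fibrillar points lie within the dotted lines, Col4a6 lies far to the right, and the cartilage points fall into the type II, X and XI chains on the right and the type IX chains at or left of the black line.

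The cartilage chains went both ways. All 7 were measured, with a median log2 ratio of 0.33. Above 0 were 4 (57.1%, beside 52.4% of all measured genes), and 3 were below. At least 1.5-fold higher was 1 (14.3%, beside 3.2%), and none were lower (beside 2.98%). Col2a1 encodes the chain of type II collagen, the main fibrillar collagen of cartilage, and its product also serves as the third chain of type XI collagen. Its signal was 2857 in WT and 4919 in KO, a log2 ratio of 0.74 ± 0.20 or 1.67-fold (probe at chr15:97806071-97806130, mm9). Col11a1 read 1750 and 2538, a ratio of 0.50 ± 0.20. Col11a2 read 752 and 1082, a ratio of 0.48 ± 0.20. The ratios of the 3 chains that can assemble into type XI collagen were thus above 0 and within 0.26 of each other, and Col2a1 alone passed 1.5-fold. Col10a1, a marker of hypertrophic cartilage, read 151 and 195, a ratio of 0.33 ± 0.21.

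The type IX chains, which decorate type II fibrils and assemble as a trimer of the 3 gene products, were not higher. Col9a1 was at 57.8 in WT and 58.2 in KO, a log2 ratio of -0.03 ± 0.27. Col9a2 was at 1796 and 1799, a ratio of -0.04 ± 0.20. Col9a3 read 409 in WT and 310 in KO, the lowest ratio of the group at -0.44 ± 0.21. The median of the 3 type IX chains was -0.04, that of the type II and XI chains 0.50. This contrast was noticed in the values and was not tested.

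Other cartilage genes were set beside these chains. Of the 13 cartilage markers listed, 8 were measured by the same criterion. Their median log2 ratio was 0.24, and 6 of the 8 were above 0 (beside 52.4% of all measured genes). At least 1.5-fold higher were 2 of the 8 (beside 3.2%), and none were lower (beside 2.98%). Comp, a matrix protein of cartilage and tendon, went from 89.6 in WT to 171 in KO, a ratio of 0.89 ± 0.23. Hapln1, which links aggrecan to hyaluronan, went from 266 to 434, a ratio of 0.66 ± 0.21. Acan, the aggrecan core protein, was at 173 and 229, a ratio of 0.36 ± 0.21, and Matn4 gave the lowest ratio at -0.14. The defining cartilage genes Matn1, Matn3, Cnmd and Ucma, and also Sox6, were well above background on neither array. The summed scaled signal of the 8 measured markers was 77.6 in WT and 76.0 in KO, most of it from Sox5. The part of cartilage cells in the values of Col2a1, Col11a1 and Col11a2 was not tested.

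The FACIT chains were within 1.5-fold, apart from 1 dim chain that was lower in KO. Of the 6 chains, 5 were measured, with a median log2 ratio of 0.25. Above 0 were 4 of the 5 (beside 52.4% of all measured genes), among them Col16a1 at 0.04 ± 0.20. At least 1.5-fold higher were none (beside 3.2%), and 1 of the 5 was lower (beside 2.98%). Col22a1, a chain found at tissue junctions, had the highest ratio of the group, with 2984 in WT and 3907 in KO, or 0.35 ± 0.20. Col12a1 read 4374 and 5353, a ratio of 0.25 ± 0.20, and Col14a1 read 680 and 888, a ratio of 0.34 ± 0.20. Both bind the surface of type I fibrils. The second probe of Col14a1 read 222 and 376 and gave 0.72 ± 0.21, past 1.5-fold. Col16a1 was at 18282 and 19380, a ratio of 0.04 ± 0.20. Its second probe gave 0.06, while its dim triple-helix probe went from 75.4 to 116, a ratio of 0.58 ± 0.23.

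Col20a1 had the lowest ratio of the FACIT group. Its brightest probe (chr2:180752070-180752129, mm9) read 84.3 in WT and 55.2 in KO, a log2 ratio of -0.65 ± 0.26 or 1.57-fold lower in KO. Its second probe, at 61.7 and 59.3, gave -0.10 ± 0.28. The second probe was the brighter one on the KO array, and with the probe chosen there, again an alternative added after seeing the data, Col20a1 was not called and 1 lower chain was left, Col15a1.

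The other chains were the microfibrillar, network-forming and transmembrane collagens. Of these 11, 7 were measured, with a median log2 ratio of 0.22. Above 0 were 4 (57.1%, beside 52.4% of all measured genes). At least 1.5-fold higher were 2 (28.6%, beside 3.2%), and none were lower (beside 2.98%). Col6a1 and Col6a2 encode partner chains of the beaded type VI microfibrils around cells. Col6a1 read 12498 in WT and 15001 in KO, a ratio of 0.22 ± 0.20, and Col6a2 read 2216 and 2754, a ratio of 0.27 ± 0.20. The 2 partners lay within 0.05 of each other, the closest of all partner chains compared. Col6a4, Col6a5 and Col6a6, which encode the other long chains of type VI analysed here, were at 11.2 or below on both arrays and not well above background.

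Type VIII collagen forms hexagonal networks, in vessel walls among other places, from the products of Col8a1 and Col8a2. Col8a1 (probe at chr16:57624471-57624530, mm9) read 129 in WT and 206 in KO, a log2 ratio of 0.63 ± 0.21 or 1.54-fold. Col8a2 was at 1731 and 1769 with its brightest probe, a ratio of -0.01 ± 0.20. The partners thus stood 0.64 apart on the log2 scale. The dimmer probe of Col8a2, however, read 56.1 and 95.9, a ratio of 0.73 ± 0.26, close to that of Col8a1. Col8a2 and Col4a6 were the 2 chains whose measured probes disagreed by more than 1.5-fold, among the 8 chains with more than 1 measured probe.

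The transmembrane chains showed no common direction. Col13a1, a chain of cell-matrix and neuromuscular contacts, read 57.5 in WT and 89.3 in KO, a log2 ratio of 0.59 ± 0.26 or 1.51-fold, just past the 1.5-fold line. With the 75th percentile taken without control spots it came to 0.58, short of that line, and 4 chains were then higher. Col23a1 read 201 and 193, a ratio of -0.10 ± 0.21, and its other 2 probes gave -0.18 and -0.07. Col25a1 had the lowest ratio of the other chains. Its brightest probe read 77.2 in WT and 60.8 in KO, a ratio of -0.39 ± 0.25, and a second measured probe gave -0.01. Its triple-helix probe went the other way, from 11.5 in WT, not well above background, to 38.5 in KO. That probe was above background in KO alone and has no ratio here.

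**Figure D3:**
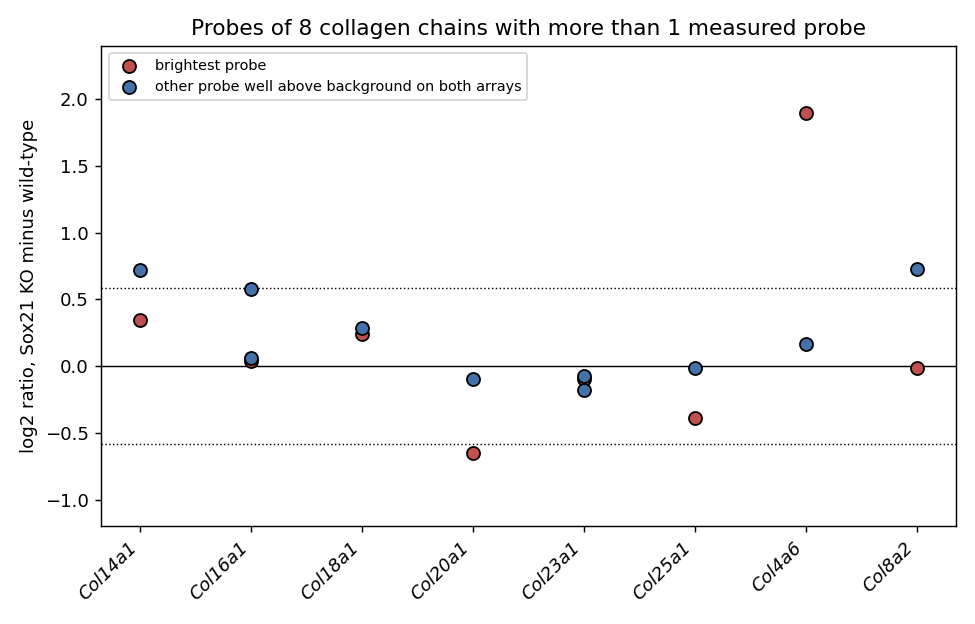
The plot of probes gives the log2 ratio (KO minus WT) of each measured probe of the 8 chains that have more than 1 measured probe; red circles are the brightest probe, blue circles the other probes, and dotted lines mark 1.5-fold. The probes of Col18a1 and Col23a1 lie together, whereas those of Col4a6 and Col8a2 lie more than 1.5-fold apart.

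Across the partner chains, the difference in log2 ratio was 0.05 for type VI, 0.10 for Col4a1 and Col4a2, 0.14 for type I, 0.16 for type V and 0.26 for the type XI chains with Col2a1. It was larger for type IX at 0.41, for type VIII at 0.64, and for Col4a5 and Col4a6 at 1.02. The values for types VI, I and V and for Col4a1 and Col4a2 lie below the scanner's error of a single ratio, and both the type VIII and the Col4a5 and Col4a6 differences include a chain whose probes disagreed.

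The genes that modify, fold, cut and crosslink collagen were listed apart, 45 in all, of which 44 were on the array and 41 were measured. Their median log2 ratio was 0.10, with 3 at least 1.5-fold higher (7.32%, beside 3.2% of all measured genes) and 1 lower (2.44%, beside 2.98%). The hydroxylases and glycosyltransferases act on the chains inside the cell. Over the 12 measured of 13 listed, their median was -0.07, with 5 above 0 (41.7%, beside 52.4% of all measured genes). P4ha3, a catalytic subunit of prolyl 4-hydroxylase, which stabilises the triple helix, went from 78677 in WT to 47137 in KO, a log2 ratio of -0.78 ± 0.20, the lowest of all pathway genes. P4ha2, a second such subunit, read 15371 and 11115, a ratio of -0.51 ± 0.20, while P4ha1, read from a dim probe, was at 111 and 147, a ratio of 0.35 ± 0.22. P3h2, a prolyl 3-hydroxylase of type IV collagen, read 33.6 and 58.4, a ratio of 0.75 ± 0.33, the highest of the list and close to background in WT.

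The chaperones and secretion factors were near 0 as a list, with a median of -0.02 over 10 measured genes, none past 1.5-fold. Mia3, which helps load procollagen into transport carriers, gave the lowest ratio at -0.25, and Creb3l1, a regulator of collagen secretion, the highest at 0.25. The collagen chaperone Serpinh1 was at 28414 in WT and 24945 in KO, a ratio of -0.23 ± 0.20. The propeptide proteases and enhancers, which trim procollagen outside the cell, had a median of 0.09 over 7 genes, from -0.23 for Pcolce2 to 0.30 for Pcolce, and none passed 1.5-fold.

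The crosslinking enzymes and the receptors leaned the way of the chains. The 5 crosslinking enzymes had a median log2 ratio of 0.37, with 4 above 0. Lox, lysyl oxidase, went from 432 in WT to 677 in KO, a ratio of 0.61 ± 0.20 or 1.52-fold, while Loxl3 gave the lowest ratio at -0.36 ± 0.24. All 7 collagen receptors were above 0 (beside 52.4%), with a median of 0.22, and 1 was at least 1.5-fold higher (14.3%, beside 3.2%). Itga10, an integrin chain of cartilage cells, was the highest at 954 in WT and 1536 in KO, a ratio of 0.65 ± 0.20 or 1.56-fold, and Itga11, an integrin chain of fibroblasts, the lowest at 0.03. Apart from Itga10, the 6 other receptors were within 1.5-fold.

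**Figure D4:**
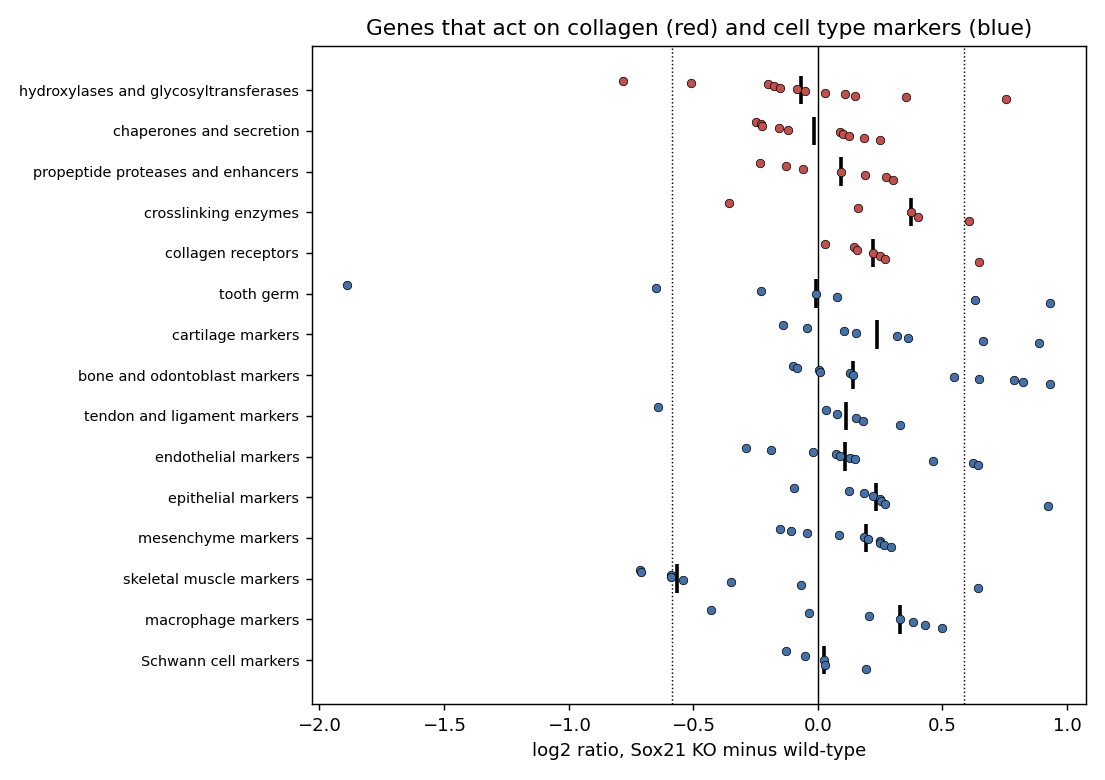
The plot of lists gives the log2 ratio (KO minus WT) of each measured gene that acts on collagen (red) and of each measured cell type marker (blue), with the list median as a black bar and 1.5-fold as dotted lines. The receptor points all lie right of 0, the hydroxylase points reach furthest left among the red lists, and the muscle points lie mostly left of 0.

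Markers of the cell types that make collagen were set beside these values. The 10 mesenchyme markers had a median log2 ratio of 0.19, from -0.15 for Twist2 to 0.29 for Vim. Above 0 were 7 (70.0%, beside 52.4% of all measured genes), and none passed 1.5-fold. Their summed scaled signal was 288 in WT and 329 in KO. The 11 bone and odontoblast markers had a median of 0.14, and 4 of them (36.4%, beside 3.2% of all measured genes) were at least 1.5-fold higher, namely Dmp1 at 0.93, Spp1 at 0.82, Phex at 0.79 and Mepe at 0.65. Runx2 was the lowest of that list at -0.10, and the summed signal was 203 and 260. The 8 epithelial markers had a median of 0.24, from -0.09 for Cdh1 to 0.92 for Krt18, with a summed signal of 571 and 671. The part of cell composition in the collagen values was not tested.

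Vessel, tendon, muscle, nerve and macrophage genes were examined for the same reason. The 10 endothelial markers had a median of 0.11 and a summed signal of 97.4 in WT and 96.4 in KO. At least 1.5-fold higher were 2 of the 10 (beside 3.2% of all measured genes), Tek at 0.64 and Pecam1 at 0.62. None were at least 1.5-fold lower (beside 2.98%), and Emcn was lowest at -0.29. The 6 tendon markers had a median of 0.11, with Kera at -0.64 the lowest and Thbs4 at 0.33 the highest. The skeletal muscle markers were the list that was lower in KO, with a median of -0.56 over 8 of 9 genes and a summed signal of 69.5 and 50.1. Tnnt3, Ckm, Acta1 and Tnnc2 were at least 1.5-fold lower (50.0%, beside 2.98% of all measured genes), down to -0.71 for Ckm. Myh3 was higher at 0.64 (12.5%, beside 3.2%). The 7 macrophage markers had a median of 0.33, from -0.43 for Aif1 to 0.50 for Cd68. The Schwann cell markers were near 0, with a median of 0.02 over 5 of 7 genes, and Foxd3 was the highest at 0.19. The 7 tooth germ genes had a median of -0.01. At least 1.5-fold lower were Amtn at -1.89 and Enam at -0.65 (28.6%, beside 2.98% of all measured genes). At least 1.5-fold higher were Odam at 0.63 and Dmp1 (28.6%, beside 3.2%).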

How the data were processed

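RNA of 1 WT and 1 Sox21 KO incisor sample was labelled with Cy3 and hybridised to SurePrint G3 mouse arrays in 1 colour. The deposited scanner files hold spot intensity values made by the authors with Agilent Feature Extraction 10.7.3.1 (submitters' processing notes), already background-subtracted. Both arrays were on 1 slide. The authors filtered low signals and applied a percentile shift in GeneSpring. Their value table is a ratio of each deposited signal to a constant per array, 267.8 for WT and 275.6 for KO. It is on a linear scale with column medians of 0.076 and 0.071. On the WT array this constant varied by at most 2.69e-06 of its value between spots, so its values were not centred further by probe.

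Here each processed intensity was divided by the 75th percentile of its array over all 62976 spots, and log2 values of KO minus WT were taken. Of 59305 spots other than controls, 267 outlier spots were left out. Spots of a probe were averaged, giving 55679 probes. Probes were named through RefSeq tables, 25528 by symbol, 2978 by an older symbol and 190 by accession; 26983 stayed unnamed. A gene took its brightest probe by mean log2 signal of both arrays, and the lowest signals well above background were 21.3 (WT) and 19.5 (KO). Over 268 probes printed on 5 or more spots, the median SD of the log2 ratio was 0.085. The number of arrays limits the precision. Collagen names were used as printed on the array, so Col6a3, Col21a1 and Col26a1 were not analysed under the rule. All chains, every called chain, partner chains, the extremes of each group and list, and probes that disagreed were named, except for a marker gene that is not reported here. The collagen groups, the other lists and the threshold of 1.5-fold were chosen with earlier results of these data known. Exon and UTR positions of probes were not assigned, since no annotation of mm9 was used.

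Alternatives were the median of all spots, the percentile without controls, quantile normalization, normexp with an offset of 50 (limma 3.58.1, R 4.3.3), the deposited ratio table, no background requirement, other probes of a gene and a threshold of 2-fold. The scaling and calls were tested on simulated data with Python 3.11.15, numpy 2.4.6 and pandas 2.3.3.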

Additional observations from a re-analysis of the deposited data

How the results depend on the processing

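With 1 array per genotype, a chain that differs cannot be separated from a difference between 2 RNA samples, and 6 of the 7 calls rest on probes below the median brightness of the chains. Scaling by the median of all spots moved the median of all measured genes from 0.01 to 0.11 and with it every collagen value: the medians became 0.35 for all chains, 0.22 for fibrillar, 0.44 for basement membrane, 0.42 for cartilage, 0.35 for FACIT and 0.32 for other chains and 0.20 for the pathway genes, and 7 chains were higher, now with Col7a1 at 0.61 and Col11a1 at 0.59, and 1 was lower. The main scaling, this one, the percentile without controls and the deposited ratio table each divide an array by 1 number. They shift all ratios alike, so the gap between the collagen median and that of all genes must be the same, 0.24. It was 0.26 under quantile normalization and 0.25 under normexp. Chains above 0 numbered from 24 to 28 over the 6 scalings, with Col24a1, Col8a2, Col9a1 and Col9a2 changing sign. Under normexp, which shrinks dim probes, 3 chains were higher (Col13a1 and Col8a1 at 0.27 and 0.39 were not) and 0 lower (Col15a1 and Col20a1 both at -0.38), while Col2a1, Col4a5 and Col4a6 passed 1.5-fold under all 6 scalings. At 2-fold, 1 chain was higher, Col4a6, and 0 lower. With the mean of all measured probes, with the dimmest measured probe or with the probe brightest in KO (added after seeing the data), 1 chain was lower, and the dimmest probe moved the FACIT median to 0.35 and gave 6 higher chains. Of the single-chain values under all alternatives, 294 moved by no more than 0.085, the SD between repeat spots, and 56 by more, 35 of these under the median of all spots. Many of the 294 were fixed in advance. The deposited ratio table has nearly the same divisors as the main scaling, and a chain with 1 probe has no other probe to take. Counting bounds added nothing, since no chain was above background on 1 array alone. No paired analysis was possible because each genotype has 1 array.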

Other observations

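Col26a1, a collagen-like chain printed on the array under the older name Emid2 and so outside the rule for the chains, read 3358 in WT and 3559 in KO, a log2 ratio of 0.04. Tmem38b, an endoplasmic reticulum channel listed with the chaperones, and Colgalt2, a collagen galactosyltransferase, were well above background in KO alone, at 27.1 and 28.7, and read 11.4 and 20.1 in WT.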
